A study of Mus musculus with 6 samples.

Results

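The levels of 10 genes of neutrophils and their recruitment were examined in mouse gastrocnemius muscle after irradiation of a distant tumour. The genes, chosen by name from the 55995 features of the deposited table, were S100a8, S100a9, Ngp, Camp, Ltf, Mmp8, Csf3r, Cxcr2, Retnlg and Cxcl1, and each was found once. RNA-seq was performed on the gastrocnemius, a calf muscle, of NOD/SCID/IL2Rγ-null (NSG) mice that carried xenografts of WT MDA-MB-231 cells, an established line of human breast cancer, injected with Matrigel under the skin of the left flank. In the radiotherapy group (3 libraries) the tumour received a single dose of 10 Gy of X-rays at about 800 mm3, and the contralateral muscle was collected after 3 days. The control group (3 libraries) carried the same tumours and was not irradiated. Both groups therefore bore a tumour, and no tumour-free muscle was analysed here. The labels give neither the age nor the sex of the mice, nor the day or tumour size at which control muscle was taken. Nothing states that the libraries of a group come from different mice, so the p-values reflect the spread among these libraries alone, which may be technical.

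Neutrophils are short-lived white blood cells that mature in the bone marrow under the control of granulocyte colony-stimulating factor (G-CSF), leave it for the blood, and enter injured or inflamed tissue along gradients of CXC chemokines. Their granule proteins are made in sequence: primary granule enzymes in early precursors, secondary granule proteins later, and gelatinase granule proteins in nearly mature cells. NSG mice lack functional lymphocytes and natural killer cells but still produce neutrophils. In the radiotherapy and control libraries alike, the 12 lymphocyte markers summed to at most 0.43 TPM, and Cd3g and Ncr1, named after their values were seen, were listed at 0 throughout, while the 9 skeletal muscle genes summed to 80590 to 148300 TPM in radiotherapy muscle and 97960 to 106700 TPM in control muscle. TPM values are transcript levels scaled for length and library size.

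The sequences before the transcription start of 6 of the genes are shown because they cover the calprotectin pair, the granule proteins and the chemokine, and hold short motifs of factors known from myeloid and inflammatory genes. All 10 genes were matched in the RefSeq promoter table (build GRCm38.p6). The 250 bases before the start are printed 5′ to 3′ on the strand of the gene, and capitals mark motif matches on either strand. The intervals are chr3:90668821-90669070 (plus strand) for S100a8, chr3:90695722-90695971 (minus) for S100a9, chr9:110419558-110419807 (plus) for Ngp, chr9:111019042-111019291 (plus) for Ltf, chr9:7558179-7558428 (plus) for Mmp8 and chr5:90890995-90891244 (plus) for Cxcl1.
S100a8: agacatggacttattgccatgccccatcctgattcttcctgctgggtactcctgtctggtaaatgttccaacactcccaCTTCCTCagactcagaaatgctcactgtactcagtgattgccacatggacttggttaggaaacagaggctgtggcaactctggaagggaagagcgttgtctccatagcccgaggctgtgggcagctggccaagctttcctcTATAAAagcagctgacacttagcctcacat
S100a9: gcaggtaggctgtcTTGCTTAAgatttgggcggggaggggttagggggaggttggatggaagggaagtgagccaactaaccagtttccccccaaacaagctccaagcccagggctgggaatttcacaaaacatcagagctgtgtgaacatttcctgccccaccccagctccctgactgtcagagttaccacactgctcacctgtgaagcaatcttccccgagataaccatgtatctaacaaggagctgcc
Ngp: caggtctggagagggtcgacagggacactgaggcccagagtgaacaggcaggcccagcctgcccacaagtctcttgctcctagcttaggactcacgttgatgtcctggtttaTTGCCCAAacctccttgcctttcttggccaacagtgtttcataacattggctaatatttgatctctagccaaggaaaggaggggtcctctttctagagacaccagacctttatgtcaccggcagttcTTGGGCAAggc
Ltf: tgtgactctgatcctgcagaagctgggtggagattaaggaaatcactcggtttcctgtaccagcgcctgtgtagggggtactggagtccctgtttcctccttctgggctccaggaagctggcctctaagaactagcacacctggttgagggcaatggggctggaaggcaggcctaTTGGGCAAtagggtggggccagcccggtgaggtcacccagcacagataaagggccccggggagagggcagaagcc
Mmp8: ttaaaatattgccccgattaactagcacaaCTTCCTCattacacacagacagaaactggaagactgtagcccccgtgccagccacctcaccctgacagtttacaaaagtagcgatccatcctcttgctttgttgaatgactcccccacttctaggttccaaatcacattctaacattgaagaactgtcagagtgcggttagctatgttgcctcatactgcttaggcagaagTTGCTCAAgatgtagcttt
Cxcl1: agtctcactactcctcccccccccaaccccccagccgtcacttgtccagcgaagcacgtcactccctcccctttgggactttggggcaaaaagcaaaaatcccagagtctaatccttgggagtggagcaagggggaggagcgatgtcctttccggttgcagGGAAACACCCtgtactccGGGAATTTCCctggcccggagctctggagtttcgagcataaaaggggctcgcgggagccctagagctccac

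The search covered 4 motifs on both strands of the 300-base window from 250 bases before to 50 bases after the start, and in these 10 promoters no match overlapped another. TTGCNNAA, a form of the C/EBP element, was present in 5 of the 10 promoters (S100a9, Ngp, Ltf, Mmp8 and Retnlg) and in 10.8% of the 32851 promoters of the table. In Mmp8 it lay 19 bases before the start (TTGCTCAA), and Ngp had matches at 138 and 11 bases before the start. GAGGAAG, a core that the myeloid factor PU.1 can bind, was present in 3 promoters (S100a8, Csf3r and Mmp8), against 13.6% of all promoters. A 10-base form of the NF-kB element, beginning with GGG and ending with CC, was found in 1 promoter, that of Cxcl1, and in 4.79% of all promoters. Cxcl1 held it on both strands, at 89 bases before the start (GGAAACACCC) and at 71 bases (GGGAATTTCC). TATAAA, the TATA box, was present in 3 promoters (S100a8, S100a9 and Mmp8) and in 13.6% of all. In S100a8 it lay 30 bases before the start, while the match of S100a9 began at the annotated start and that of Mmp8 crossed it, so these are outside or at the edge of the printed bases. A match describes the letters only and does not show that a factor binds.

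All 10 genes were highest in radiotherapy replicate 3, and 8 of them were lower in radiotherapy replicates 1 and 2 than in every control library. Among all 11938 features tested, 30.0% were highest in radiotherapy replicate 3, 58.8% were lower in replicates 1 and 2 than in every control library (6.17% were higher, as 0 of the 10 genes were), and 19.3% did both, as 8 of the 10 genes did. The exceptions were Camp and Ltf, for which replicate 2 was below every control library but replicate 1 was not. Of the 9 genes tested, which leave out Camp, 9 were highest in replicate 3 and 8 did both. No gene separated the groups, since 0 of 10 lay above, and 0 of 10 below, all controls in each radiotherapy library, beside 1.73% of tested features above and 19.3% below. In radiotherapy replicate 3, all 10 genes were at least 3 times the highest control library, as were 3.13% of tested features, and 7 were at least 10 times, as were 0.888%. Of these 7, Camp averaged below 1 TPM and was not tested, and Ngp, Ltf and Mmp8 reached that minimum only through replicate 3. In the control libraries Ltf and Camp were at most 0.24 TPM, so their ratios rest on low values.

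**Figure D1:**
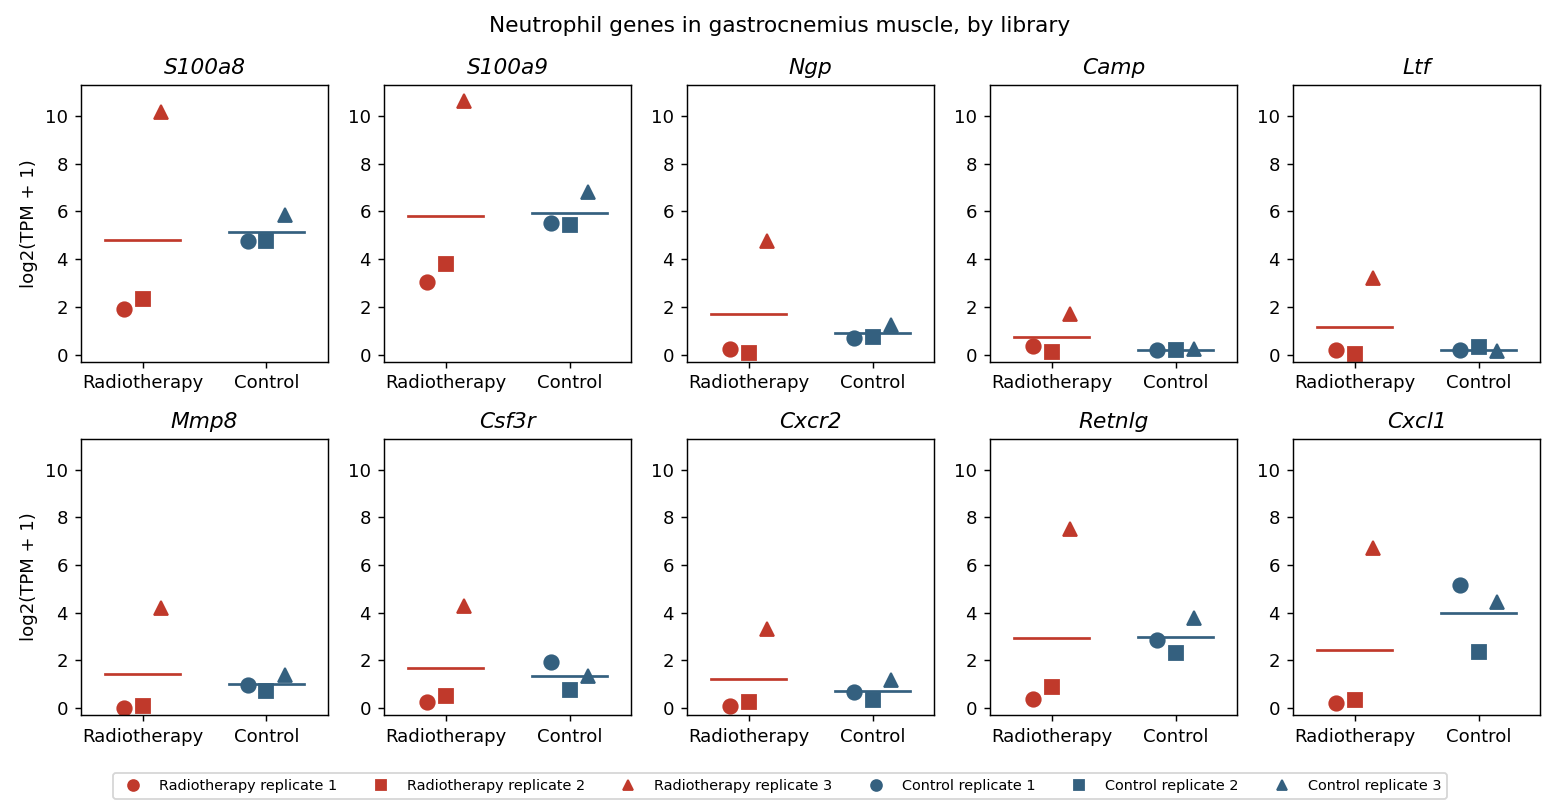
Level of each of the 10 genes in each library, as log2(TPM + 1), with radiotherapy libraries left and control libraries right. Symbols give the replicate and horizontal lines the group mean. In every panel the highest point is radiotherapy replicate 3.

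Calprotectin is the calcium-binding and zinc-binding dimer of S100a8 and S100a9, the most abundant cytosolic protein of neutrophils, also made by monocytes. S100a8 was at 2.74, 3.95 and 1141 TPM across radiotherapy replicates 1, 2 and 3, against 26.3, 26.4 and 56.1 TPM in control replicates 1, 2 and 3. Replicates 1 and 2 were below every control library and replicate 3 was 20.3 times the highest of them. S100a9 was at 7.15, 13.01 and 1574 TPM across the radiotherapy libraries, against 45.2, 41.4 and 111 TPM in the control libraries. Again replicates 1 and 2 were below every control library, and replicate 3 was 14.2 times the highest control. The group means, 382 ± 657 TPM in radiotherapy and 36.3 ± 17.2 TPM in control muscle for S100a8 and 531 ± 903 and 65.9 ± 39.2 TPM for S100a9 (SD, n = 3 each), therefore describe no single radiotherapy library. S100a9 was the highest of the 10 genes in all 6 libraries and S100a8 the second highest in 5, the exception being control replicate 1, where Cxcl1 was higher. Together they made up 88.3%, 89.6% and 88.1% of the summed TPM of the 10 genes in the radiotherapy libraries and 60.8%, 86.3% and 81.0% in the control libraries. Ranked by TPM among all features, S100a9 stood at 4711, 3060 and 84 in radiotherapy replicates 1, 2 and 3 and at 1852, 2038 and 789 in the control libraries. The ratio of S100a8 to S100a9 was 0.383, 0.304 and 0.725 in the radiotherapy libraries and 0.581, 0.636 and 0.505 in the control libraries, so both the lowest and the highest ratios were in radiotherapy muscle.

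The granule genes Ngp, Ltf, Camp and Mmp8 were below 2 TPM in every library except radiotherapy replicate 3. Ngp encodes neutrophilic granule protein, a relative of the cathelicidins, and was at 0.19, 0.04 and 26.1 TPM across the radiotherapy libraries, against 0.64, 0.65 and 1.35 TPM in the control libraries. Replicate 3 was 19.3 times the highest control. Ltf, the iron-binding lactoferrin, was at 0.13, 0.02 and 8.37 TPM, against 0.14, 0.24 and 0.10 TPM in control. Its replicate 3 stood 34.9 times above the highest control, the largest such ratio of the 10 genes, while replicate 1 lay inside the control range. Camp, the cathelicidin antimicrobial peptide, was at 0.28, 0.08 and 2.22 TPM, against 0.16, 0.15 and 0.17 TPM in control. It is the only one of the 10 genes with a mean below 1 TPM over the 6 libraries, and an exact two-sided permutation test of its log2 values gave p = 0.4, where 3 libraries against 3 allow no p below 0.1. Mmp8, neutrophil collagenase, was at 0, 0.07 and 17.3 TPM, against 0.95, 0.67 and 1.64 TPM in control. It is listed at 0 in radiotherapy replicate 1, and replicate 3 was 10.5 times the highest control.

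Retnlg encodes resistin-like gamma, a secreted protein of neutrophils and bone marrow. Retnlg was at 0.30, 0.87 and 181 TPM across the radiotherapy libraries, against 6.16, 3.99 and 12.7 TPM in the control libraries. Replicates 1 and 2 were below all controls and replicate 3 was 14.2 times the highest. As a share of S100a9 it was 4.20%, 6.69% and 11.5% in the radiotherapy libraries and 13.6%, 9.64% and 11.4% in the control libraries, so replicate 3 lay inside the control range of this ratio and replicates 1 and 2 below it.

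The surface receptors that guide the cells were low outside radiotherapy replicate 3, and replicates 1 and 2 were below every control library for both. Csf3r is the receptor for G-CSF, and was at 0.20, 0.42 and 18.7 TPM across the radiotherapy libraries, against 2.87, 0.71 and 1.51 TPM in the control libraries. Cxcr2 is the receptor for CXC chemokines such as Cxcl1, and was at 0.06, 0.19 and 8.87 TPM, against 0.58, 0.27 and 1.26 TPM in control. Replicate 3 was 6.51 times the highest control for Csf3r and 7.04 times for Cxcr2. The ratio of Cxcr2 to Csf3r ran from 0.300 to 0.475 in radiotherapy and from 0.202 to 0.834 in control libraries, so that the control libraries spanned the radiotherapy ones.

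Cxcl1 is a ligand of Cxcr2 and is made by many cell types, including endothelium, fibroblasts and muscle cells. Cxcl1 was at 0.15, 0.28 and 105 TPM across the radiotherapy libraries, against 34.6, 4.09 and 20.5 TPM in the control libraries. Its replicate 3 was 3.02 times the highest control, the smallest such ratio of the 10 genes, and its controls differed among themselves by 8.46 times, the widest control range of the 10.

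Of the 10 genes, 9 reached a mean of 1 TPM and entered the fit over all features, and 4 of these (Ngp, Ltf, Mmp8 and Cxcr2) did so only through radiotherapy replicate 3, since their mean over the other 5 libraries was below 1 TPM. None passed the test with limma at an adjusted p under 0.05, with 0 higher and 0 lower, beside 0.0419% of tested features called higher and 0.0168% lower, and 0 of the 9 had an unadjusted p under 0.05 (1.18% of features higher and 13.3% lower). The log2 change, radiotherapy minus control, was below 0 for 4 genes (78.5% of tested features) and above 0 for 5, with a median of 0.34 against -0.36 over all tested features. The 5 above 0 include the 4 genes that entered only through replicate 3, so this count and median depend on the filter. With a minimum mean of 5 TPM, 4 genes were kept and all 4 were below 0, with a median of -0.22 against -0.42. With no filter, 6 of 10 were above 0, with a median of 0.37 against -0.05. In the main fit the log2 change ran from -1.55 for Cxcl1 (SE 1.75, adjusted p = 0.656 by limma) to 0.93 for Ltf (SE 0.83, adjusted p = 0.572). For S100a8 it was -0.34 with a 95% interval from -5.18 to 4.50, and for S100a9 -0.10 with an interval from -4.48 to 4.29, so large changes in either direction are within these intervals. Without radiotherapy replicate 3, all 9 log2 changes were below 0 and 5 genes passed as lower, beside 27.6% of features called lower and 1.98% called higher. The library left out is the one in which all 10 genes were highest. For the 8 genes with replicates 1 and 2 below every control library, the negative sign was therefore already fixed. This fit sets 2 libraries against 3. With that library left out, S100a8 fell by 3.02 on the log2 scale (adjusted p = 0.0123 by limma), Cxcl1 by 3.70 (0.0257), S100a9 by 2.50 (0.0221), Retnlg by 2.34 (0.0217) and Mmp8 by 0.99 (0.0435). The 1 TPM minimum was kept over all 6 libraries, so Mmp8 was in this test only through the library left out, which does not apply to the other 4. The median over all features was -0.57 in this setting. Ngp (-0.74, adjusted p = 0.0791 by limma), Csf3r (-0.97, 0.0982), Cxcr2 (-0.56, 0.1997) and Ltf (-0.11, 0.704) did not pass.

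**Figure D2:**
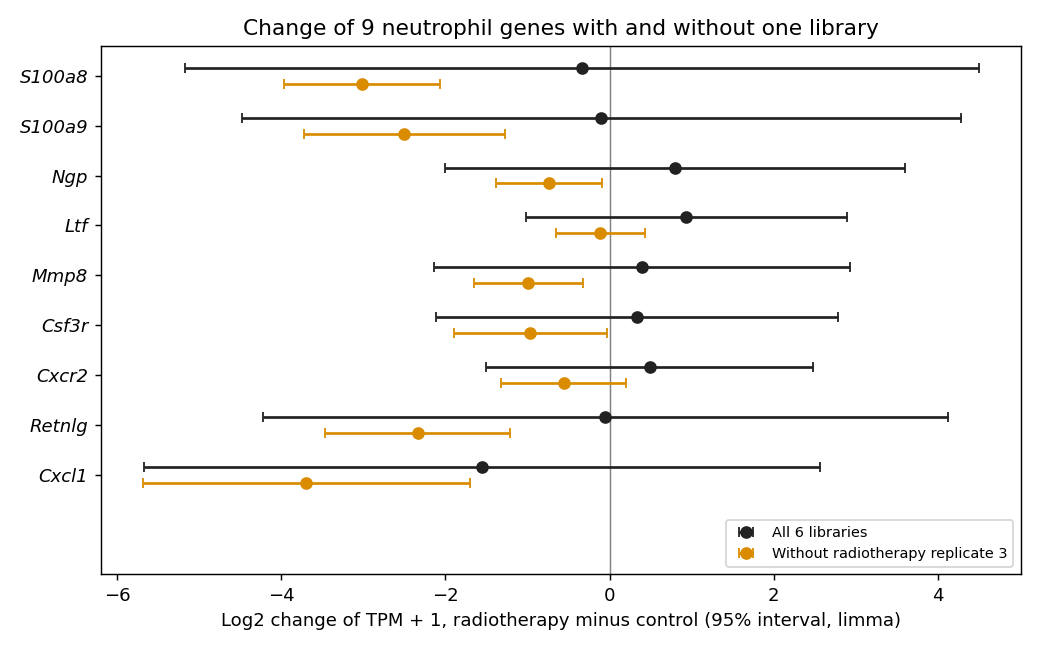
Log2 change of TPM + 1, radiotherapy minus control, with its 95% interval from limma for the 9 genes tested, with all 6 libraries (black) and without radiotherapy replicate 3 (orange). With all libraries every interval crosses 0, and without replicate 3 those of Ltf and Cxcr2 still do.

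The difference between libraries was also present relative to a muscle transcript. Per 1000 TPM of Ckm, muscle creatine kinase, in each library, the 9 genes other than Cxcl1 summed to 0.431, 0.785 and 154 TPM in radiotherapy replicates 1, 2 and 3 and to 4.001, 3.16 and 8.67 TPM in control replicates 1, 2 and 3. In bulk muscle RNA, a different number of neutrophils and a different amount of these transcripts per neutrophil cannot be told apart, whether higher, as in replicate 3, or lower, as in replicates 1 and 2. The 20 most abundant features took 50.7%, 52.6% and 32.1% of all TPM across radiotherapy replicates 1 to 3 and 33.4% to 42.8% of it among controls, and mitochondrial genes took 14.6%, 14.8% and 8.57%, against 7.07% to 13.1%. Acute-phase genes summed to 811, 1550 and 39970 TPM in the radiotherapy libraries and 9849, 13250 and 6551 TPM in the control libraries. Most of this sum came from the metallothionein genes Mt1 and Mt2, and Lcn2, Hp, Lrg1, Cebpb and Cebpd, also in the neutrophil lists, are part of it. Mt1 was at 322, 620 and 14766 TPM across the radiotherapy libraries, against 3572, 5199 and 2591 TPM in control, and Mt2 at 353, 796 and 13784 TPM, against 4715, 6983 and 3325 TPM. Saa3, a serum amyloid A protein made outside the liver, was at 2.33, 2.18 and 3241 TPM, against 762, 207 and 64.2 TPM. The part of these differences in the neutrophil levels was not tested.

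Other neutrophil genes were read by stage of granule formation. Of 12 further genes of secondary and tertiary granules, all 12 were highest in radiotherapy replicate 3 and 8 were lower in replicates 1 and 2 than in every control library, beside 30.0% and 58.8% of all tested features. Of the 7 tested, 7 were highest in replicate 3 and 5 were lower in replicates 1 and 2 than in every control library. Among these 7, 0 passed, with a median log2 change of 0.22. The median gene was Adam8, which, like Mmp9, reached the 1 TPM minimum only through replicate 3 (both named after their values were seen). Without replicate 3, 2 passed as lower, Lcn2 and Pglyrp1, beside 27.6% of all features. Lcn2, lipocalin 2, which binds bacterial siderophores and is also made by many stressed tissues, was at 18.2, 10.8 and 4327 TPM across the radiotherapy libraries, against 316, 554 and 233 TPM in control. Pglyrp1, a peptidoglycan-binding granule protein, was at 0.81, 1.29 and 46.3 TPM, against 2.56, 2.93 and 2.42 TPM. Hp, haptoglobin, was at 19.7, 12.1 and 373 TPM, against 76.6, 20.4 and 34.8 TPM, and Anxa1, annexin A1, at 8.03, 8.58 and 28.1 TPM, against 15.6, 7.82 and 11.6 TPM. The level of Anxa1 thus separated replicate 3 but not replicates 1 and 2 from the control libraries.

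Primary granule genes, which mark promyelocytes, were at most 1.09 TPM in every library, and 5 of 6 were highest in radiotherapy replicate 3. The share over all tested features was 30.0%, but 0 of these 6 genes were tested, so this is not a like comparison. The 6 genes summed to 0.35, 0.29 and 2.15 TPM in the radiotherapy libraries and 0.84, 0.95 and 0.24 TPM in the control libraries, and none reached the mean of 1 TPM. Elane, neutrophil elastase, measured 0.05, 0 and 0.24 TPM in the radiotherapy libraries and was listed at 0 in all 3 control libraries. Mpo, myeloperoxidase, was at 0.09, 0 and 0.22 TPM, against 0, 0.19 and 0 TPM, Ctsg, cathepsin G, at 0.14, 0.05 and 0.54 TPM, against 0, 0.05 and 0 TPM, and Prtn3, proteinase 3, at 0.07, 0.24 and 1.09 TPM, against 0.84, 0.71 and 0.24 TPM. In replicate 3 these levels stood beside 1574 TPM of S100a9 and 26.1 TPM of Ngp. Markers of cell division were low as well, with 6 genes summing to 1.07 to 1.83 TPM in radiotherapy and 0.20 to 0.73 TPM in control muscle.

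Genes of mature neutrophils were mostly highest in the same library. Of 27 found of 28 listed, 23 were highest in radiotherapy replicate 3, 22 were lower in replicates 1 and 2 than in every control library, and 20 did both, beside 30.0%, 58.8% and 19.3% of all tested features. Of the 20 tested, 17 were highest in replicate 3, 18 were lower in replicates 1 and 2 than in every control library, and 16 did both. Among these 20, 0 passed, with a median log2 change of 0.03. Without replicate 3, 5 were called lower (27.6% of all features) and 0 higher (1.98%). Of these 5, Stfa2l1, named after its values were seen, reached the 1 TPM minimum only through replicate 3. Slpi, secretory leukocyte protease inhibitor, was at 0.11, 0.30 and 371 TPM across the radiotherapy libraries, against 5.14, 2.69 and 0.60 TPM in control, which put replicate 3 at 72.2 times the highest control. Wfdc21 was at 1.18, 1.31 and 99.1 TPM, against 12.99, 4.22 and 6.21 TPM. Lrg1, a secreted glycoprotein of granulocytes, liver and endothelium, was at 27.8, 29.4 and 309 TPM, against 43.0, 30.7 and 31.9 TPM. G0s2, which inhibits triglyceride breakdown and is abundant in fat as well as in neutrophils, was lowest in replicate 3, at 60.7, 26.1 and 3.76 TPM, against 16.3, 45.2 and 28.5 TPM. Fcgr4, Slfn4 and Stfa1, named after their values were seen, were not highest in replicate 3 either. In that library Fcgr4 was at 5.93 and Slfn4 at 3.96 TPM, against 15.3 and 13.1 TPM in control replicate 1. Stfa1 was at 0 in replicate 3 and at 0.84 TPM in control replicate 3. Ly6g, the surface antigen used to identify mouse neutrophils and named after its values were seen, was at 0, 0 and 2.23 TPM, against 0.06, 0.11 and 0.19 TPM.

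**Figure D3:**
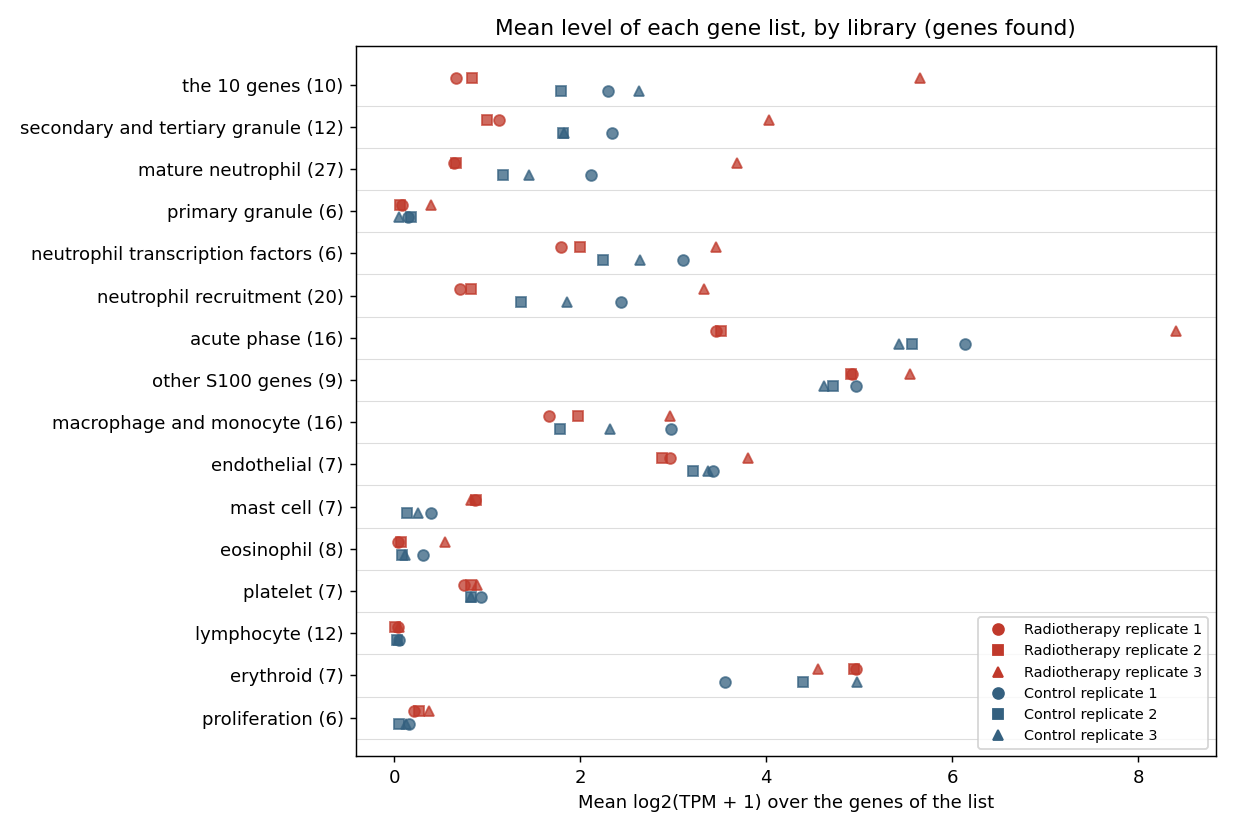
Mean log2(TPM + 1) over the genes found of each list, in each library, with radiotherapy libraries (red) above control libraries (blue) in each row. The 10 genes and the later granule, mature neutrophil, transcription factor, recruitment, acute-phase, endothelial and eosinophil lists have radiotherapy replicate 3 at the top and replicates 1 and 2 at the bottom, while mean levels of primary granule genes are below 0.4 in all 6 libraries.

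Of 20 genes for signals that call neutrophils into tissue, 13 were highest in radiotherapy replicate 3 (30.0% of all tested features). In replicates 1 and 2, 12 were lower than in every control library (58.8%), and 7 did both (19.3%). Of the 14 tested, 9 were highest in replicate 3, 11 were lower in replicates 1 and 2 than in every control library, and 6 did both. Among these 14, 0 passed, with a median log2 change of -0.07, and 7 passed as lower without replicate 3 (27.6% of all features). Csf3 encodes G-CSF, the ligand of Csf3r, and was listed at 0 in radiotherapy replicates 1 and 2 and reached 120 TPM in replicate 3, against 6.39, 0.95 and 5.05 TPM in the control libraries. Replicate 3 was 18.8 times the highest control, beside 6.51 times for its receptor. Cxcl2, another ligand of Cxcr2 and named after its values were seen, was listed at 0 in replicates 1 and 2 and at 33.6 TPM in replicate 3, against 4.71, 0.80 and 4.95 TPM. Ccl2, a monocyte chemokine, was at 0.34, 0.56 and 88.6 TPM, against 89.8, 15.9 and 14.7 TPM, so that its highest library was control replicate 1. Icam1, the endothelial ligand of leukocyte integrins, was at 2.73, 4.01 and 23.2 TPM, against 54.5, 12.0 and 21.2 TPM. Ackr1, a chemokine-binding protein of venules, was at 7.44, 9.0 and 27.5 TPM, against 28.6, 17.6 and 17.9 TPM. For Ccl2, Icam1 and Ackr1, replicate 3 did not exceed control replicate 1.

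Of 6 transcription factors of the lineage, 4 were highest in radiotherapy replicate 3 and 2 were lower in replicates 1 and 2 than in every control library, beside 30.0% and 58.8% of all tested features. Of the 4 tested, 0 passed, and 1, Cebpb, passed as lower without replicate 3 (27.6% of all features). Cebpb and Cebpd, C/EBP factors induced by inflammation in many tissues, were at 31.1, 27.9 and 131 TPM, against 68.7, 89.8 and 83.4 TPM, and at 8.55, 21.6 and 213 TPM, against 75.6, 21.0 and 55.3 TPM. Spi1, which encodes PU.1 and is expressed in all myeloid cells, was at 0.88, 1.79 and 16.04 TPM, against 13.3, 2.13 and 3.06 TPM. Cebpa, a C/EBP factor that also acts in fat, was at 2.0, 1.25 and 2.32 TPM, against 4.15, 0.78 and 2.01 TPM. Cebpe, which drives secondary granule genes in precursors and is named here after its values were seen, was listed at 0 in 5 libraries and at 0.09 TPM in radiotherapy replicate 3.

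Of 9 S100 genes that are not restricted to myeloid cells, 6 were highest in radiotherapy replicate 3 and 1 was lower in replicates 1 and 2 than in every control library, beside the same 30.0% and 58.8% of all features, and 0 of the 8 tested passed with or without that library. S100a1, the S100 protein of striated muscle, was at 328, 309 and 248 TPM across the radiotherapy libraries, against 283, 295 and 309 TPM in control. S100a11 was at 72.9, 65.2 and 306 TPM, against 75.3, 70.4 and 51.2 TPM, S100a6 at 108, 76.7 and 249 TPM, against 108, 85.7 and 76.4 TPM, and S100a10 at 54.3, 65.0 and 162 TPM, against 63.1, 57.1 and 70.6 TPM. Replicate 3 exceeded the highest control by 2.29 to 4.06 times for these 3 genes, beside 14.2 and 20.3 times for S100a9 and S100a8.

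**Figure D4:**
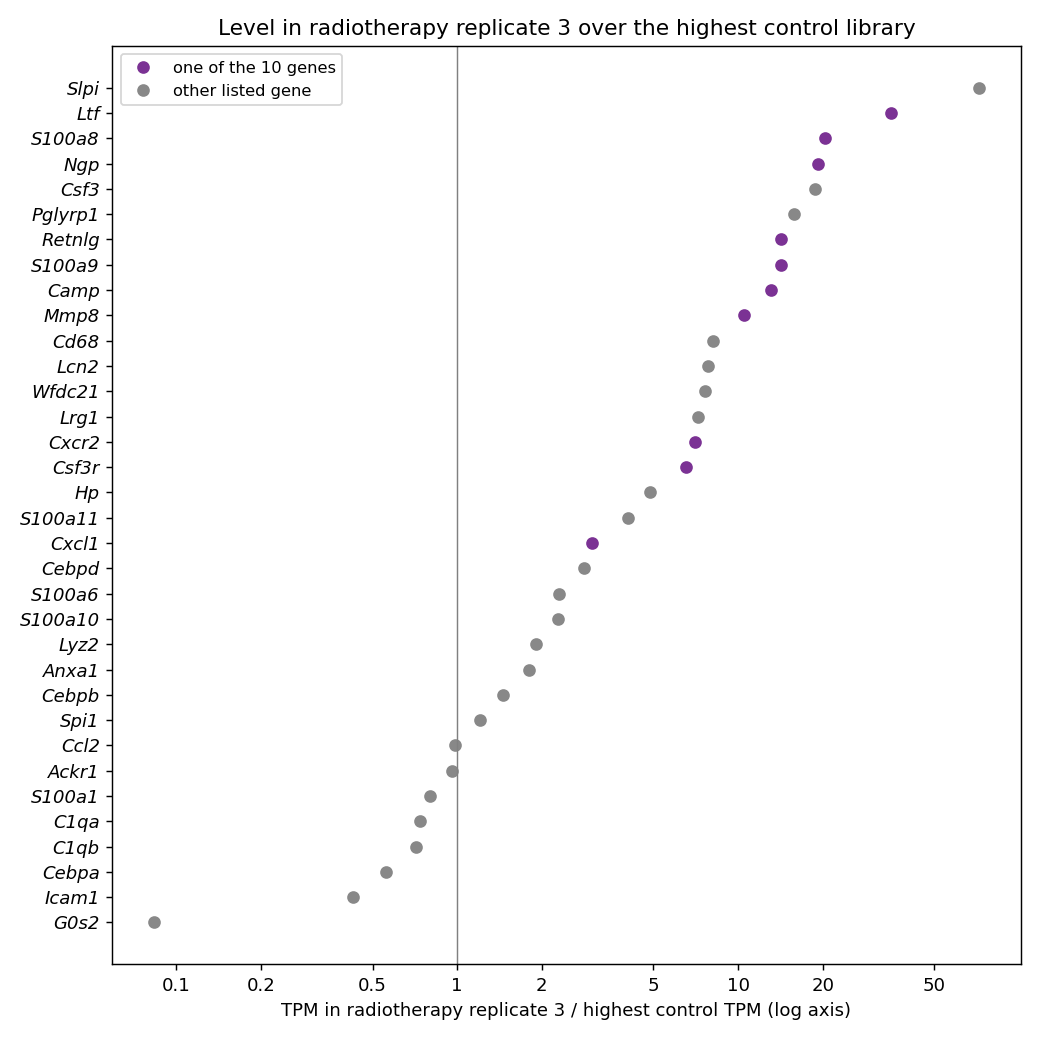
TPM in radiotherapy replicate 3 divided by the highest control TPM, on a log axis, for the 10 genes (purple) and the most abundant genes of 6 related lists (grey). The 10 genes run from 3.02 for Cxcl1 to 34.9 for Ltf.

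Markers of other blood cells were set beside the neutrophil genes. Of 16 macrophage and monocyte markers, 6 were highest in radiotherapy replicate 3 and 5 were lower in replicates 1 and 2 than in every control library, beside 30.0% and 58.8% of all tested features. Their summed level was 76.0, 121 and 465 TPM in the radiotherapy libraries and 263, 82.7 and 162 TPM in the control libraries. C1qa and C1qb, complement subunits made by tissue macrophages, were highest in control replicate 1, with C1qa at 16.4, 23.3 and 24.1 TPM, against 32.5, 10.3 and 22.5 TPM, and C1qb at 12.5, 20.01 and 25.1 TPM, against 35.0, 13.1 and 24.3 TPM. Lyz2, lysozyme of both neutrophils and macrophages, was at 22.7, 43.3 and 190 TPM, against 99.4, 31.3 and 65.7 TPM, and Cd68, a lysosomal protein of phagocytes, at 6.53, 8.49 and 121 TPM, against 14.8, 4.84 and 6.79 TPM. Of the 14 tested, 0 passed, and 1 passed as lower without replicate 3 (27.6% of all features). Haemoglobin and other erythroid transcripts summed to 1307, 1245 and 847 TPM in the radiotherapy libraries and to 312, 764 and 1396 TPM in the control libraries, and each radiotherapy library lay inside the control range. Platelet markers summed to 9.03, 13.7 and 20.6 TPM, against 10.5 to 15.2 TPM. Of 8 eosinophil markers, 3 were listed at 0 in every library, and the list summed to 0.21, 0.49 and 8.99 TPM, against 3.38, 0.56 and 0.86 TPM, most of it Ear2, at 0.15, 0.49 and 7.70 TPM, against 3.05, 0.56 and 0.75 TPM. Mast cell markers summed to 7.50, 7.79 and 6.80 TPM, against 2.39, 0.72 and 1.52 TPM. Of the 2 tested, 0 passed with all libraries (0.0419% of all features as higher) and 2 as higher without replicate 3 (1.98%). Endothelial markers summed to 57.3, 54.2 and 161 TPM, against 88.4, 75.2 and 87.3 TPM. Of these 7, 3 were highest in replicate 3 and 4 were lower in replicates 1 and 2 than in every control library, beside 30.0% and 58.8% of all tested features. The part of other cell types in the levels of the neutrophil genes was not tested.

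Among the genes whose levels were most like the mean log2 level of the 10 genes over the 6 libraries were Gngt2, Lpgat1, Esyt2, Vti1b, Endov, Rcan1, Sat1, Tgfb1 and Tor1a. Their Pearson r was 0.990 to 0.996 over the 6 libraries and 0.951 to 0.988 over the 5 without radiotherapy replicate 3. These coefficients are a description, since 1 library sets most of the range and 783 of the 11425 named features compared had an r above 0.9. Rcan1, a calcineurin inhibitor, was at 11.7, 9.48 and 389 TPM across the radiotherapy libraries, against 35.1, 17.9 and 35.4 TPM in control. Gngt2, a G protein gamma subunit, was at 8.85, 9.03 and 32.1 TPM, against 13.3, 12.98 and 15.2 TPM. Of the 10 neutrophil genes themselves, Retnlg and Mmp8 had the highest r with their common mean over the 6 libraries. Without radiotherapy replicate 3, the r of Camp with that mean was -0.151 and that of Ltf 0.307, beside 0.859 to 0.993 for the other 8. The mean includes each of these genes, which raises their r, most for genes that vary widely.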

How the data were processed

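RNA-seq libraries were made from total RNA of gastrocnemius muscle by a TruSeq protocol, as the labels state. The submitters' processing notes list RSEM, HISAT2 and StringTie without versions or roles, and the build mm9, while the sources used here give no annotation release. The authors deposited TPM per gene, summing to the same total per library, without counts, so the depth is unknown and precision rests on the spread between 3 libraries.

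Groups came from the labels. The 11938 features averaging 1 TPM or more across the 6 libraries were tested as log2(TPM + 1), so fold changes of low genes are understated, with limma 3.58.1 in R 4.3.3 (empirical Bayes with a trend, two-sided, no covariates). Adjusted p-values are Benjamini-Hochberg values across those features, called below 0.05. Some genes of the granule, mature neutrophil and recruitment lists averaged 1 TPM only through radiotherapy replicate 3, and the median log2 changes of these lists include them. Unless the text says tested, list counts of genes highest or lower in a library cover every gene found. The percentages beside them cover tested features only. The test was checked on simulated data with independent normal values for each gene, and recovery of changes was required only at a reduced spread. The simulation had no library that deviates across many genes, so it does not cover the pattern of radiotherapy replicate 3. The genes and lists were chosen with earlier results of these data known. Besides the 10 genes, the text names up to 4 genes of each list by highest mean TPM and the 10 genes most like them, of which 1 is not reported here; exceptions are marked, and erythroid, platelet, mast cell, endothelial, muscle, lymphocyte and division lists are given by sums. Equal replicate numbers did not deviate together (r of -0.045, -0.112 and -0.201). Alternatives were pseudocounts, filters, scalings, empirical Bayes settings, a replicate block and leaving out each library. Promoters came from RefSeq (GRCm38.p6), and no other positions are given because the build named differs. Figures were drawn with matplotlib 3.10.9.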

Additional observations from a re-analysis of the deposited data

How the results depend on the processing

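No neutrophil gene passed as higher in any setting tried, and none passed as lower except when radiotherapy replicate 3 was left out; over the settings that leave out 1 library the number passing as lower ran from 0 to 5. Over all features, the number called higher was 5 and became 0 without a filter and 3 with median-of-ratios scaling, and it ran from 0 to 236 when 1 library was left out. The number called lower was 2 and became 5 with a pseudocount of 0.1, 1 with a minimum mean of 5 TPM, 0 without a filter, 1 with median-of-ratios scaling, 4 after rescaling without mitochondrial and the 20 most abundant features and 0 with the replicate block, and ran from 0 to 3298 when 1 library was left out, the highest being without radiotherapy replicate 3. The replicate block left the neutrophil genes uncalled (0 higher, 0 lower). With each replicate number present once in each group, the block cannot alter a log2 change, only its SE and p-value. Median-of-ratios scaling moved the median log2 change of all features from -0.36 to 0.01 and turned S100a8 to 0.06, S100a9 to 0.34 and Retnlg to 0.20, and rescaling without the most abundant features turned S100a9 to 0.07. A pseudocount of 0.1 turned Mmp8 to -0.75 and Csf3r to -0.13. With 1 library left out, the log2 change ran from -3.02 to 1.11 for S100a8, -2.50 to 1.30 for S100a9, -0.74 to 1.62 for Ngp, -0.11 to 1.49 for Ltf, -0.99 to 1.11 for Mmp8, -0.97 to 1.05 for Csf3r, -0.56 to 1.05 for Cxcr2, -2.34 to 1.23 for Retnlg and -3.70 to -0.44 for Cxcl1. The lowest of each was without radiotherapy replicate 3. The stricter filter kept 4 of the 10 genes, and 10 were tested with none. In the leave-one-out fits an arm of 2 libraries shares the spread of the other group. The cause of these changes was not tested.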
